A study of Homo sapiens with 18 samples.

Results

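Heat shock proteins and their partner chaperones were examined as a group of 37 genes, chosen by name from the families that fold proteins in the cytosol, the endoplasmic reticulum and the mitochondria, together with the transcription factors HSF1 and HSF2. All 37 were found by Ensembl identifier among the 60603 genes of both count tables, and another 65 genes of the same folding pathways served as a wider list. The cells were MDA-MB-231, an established breast cancer line of the basal subtype, and the drug was doxorubicin, which traps topoisomerase II on DNA and breaks it. In the transient experiment, the 3 conditions with 2 libraries each were control cells, cells kept in 0.6 µM doxorubicin for 48 h, and cells which, by their label, had received FLAG-ZMYND8 in a transient transfection ahead of that treatment. In the inducible experiment, 1 line carried GFP and the other ZMYND8 in the lentiviral vector pInducer20 under G418 selection, and both were kept in 250 ng/mL doxycycline. Each line was sequenced without doxorubicin and after 6 or 48 h in 0.6 µM doxorubicin, with 2 libraries per condition, which the labels call biological replicates without saying whether cultures were separate, so that p-values measure the spread between these libraries alone. Since every inducible library had doxycycline and each construct was 1 selected line, the construct and the line cannot be told apart. The harvest time of the untreated cells is not given in the sources used here, so hours in culture and in doxycycline cannot be told apart from hours in doxorubicin.

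Heat shock proteins hold unfolded proteins in solution and help them fold. HSP70 proteins bind short unfolded stretches and are driven by J-domain partners and by exchange factors of the HSP110 and BAG families, and HSP90 finishes the folding of kinases and steroid receptors. When unfolded protein accumulates in the cytosol, HSF1 forms trimers that bind the heat shock element, an array of inverted GAA triplets. The endoplasmic reticulum has chaperones of its own, led by HSPA5 (BiP) and HSP90B1 (GRP94), which answer to the unfolded protein response through the endoplasmic reticulum stress element. ZMYND8 is a chromatin reader that binds acetylated histone tails, and the study asked how raising it changes the response of tumour cells to chemotherapy.

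Promoters of the members are shown first, because the heat shock element is the sequence that HSF1 reads, and the carriers are counted beside the other members below. The RefSeq promoter set (GRCh38.p14, 250 bases before to 50 after each start site) held 33 of the 37 members and had no entry for CRYAB, FKBP4, HSF1 or HSPA14. The letters searched were the triplets GAA, TTC and GAA, or TTC, GAA and TTC, with any 2 bases between neighbours, on both strands, and they were found in 8 of these 33 members (24.2%) and in 166 of all 27305 genes of the set (0.608%). Counted by promoter, since a gene can have several, it was 8 of 45 (17.8%) and 172 of 35116 (0.49%). The carriers were HSPA6, HSPA8, HSP90AA1, HSP90AB1, HSPD1, DNAJA1, DNAJB6 and CHORDC1. Overlapping matches are counted once per promoter, and a gene with no match lacks only these letters in this window. The following windows run 5′ to 3′ on the strand of the gene, with the heat shock elements in capitals, for the inducible HSP70 gene HSPA6 (chr1:161524436-161524508, plus strand), the HSP90 co-chaperone CHORDC1 (chr11:90223057-90223139, minus strand), the constitutive HSP70 gene HSPA8 (chr11:123062149-123062386, minus strand), the inducible HSP90 gene HSP90AA1 (chr14:102087090-102087162, minus strand) and the mitochondrial chaperonin HSPD1 (chr2:197500038-197500090, minus strand).
HSPA6: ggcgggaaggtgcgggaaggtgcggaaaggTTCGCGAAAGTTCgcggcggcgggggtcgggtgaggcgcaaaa
CHORDC1: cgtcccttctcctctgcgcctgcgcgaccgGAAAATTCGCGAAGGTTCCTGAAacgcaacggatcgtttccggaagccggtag
HSPA8: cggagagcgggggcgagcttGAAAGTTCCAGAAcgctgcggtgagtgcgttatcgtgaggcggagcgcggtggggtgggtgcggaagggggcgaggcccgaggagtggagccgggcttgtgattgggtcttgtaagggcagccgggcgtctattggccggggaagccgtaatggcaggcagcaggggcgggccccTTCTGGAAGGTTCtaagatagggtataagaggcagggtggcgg
HSP90AA1: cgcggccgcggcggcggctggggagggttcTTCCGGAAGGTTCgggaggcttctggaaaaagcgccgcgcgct
HSPD1: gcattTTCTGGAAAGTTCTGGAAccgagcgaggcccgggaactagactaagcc
CHORDC1 held 3 overlapping matches, HSPA8 and HSPD1 held 2 each, and the single one in HSPA6 began 74 bases before the start. The printed stretches of HSPA5 and HSP90B1, given next, carry another motif.

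A motif of the unfolded protein response was found in a pair of endoplasmic reticulum chaperones. The letters CCAAT and CCACG with any 9 bases between them, on either strand, occurred in 2 of the 33 members (6.06%), HSPA5 and HSP90B1, and in 25 of all 27305 genes (0.0916%). Neither gene held the heat shock letters in its window. Their windows are given in the same way, with the endoplasmic reticulum stress element in capitals, for HSPA5 (chr9:125241361-125241439, minus strand) and HSP90B1 (chr12:103930186-103930369, plus strand, the later match on the opposite strand).
HSPA5: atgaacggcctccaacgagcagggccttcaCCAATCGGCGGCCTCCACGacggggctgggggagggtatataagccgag
HSP90B1: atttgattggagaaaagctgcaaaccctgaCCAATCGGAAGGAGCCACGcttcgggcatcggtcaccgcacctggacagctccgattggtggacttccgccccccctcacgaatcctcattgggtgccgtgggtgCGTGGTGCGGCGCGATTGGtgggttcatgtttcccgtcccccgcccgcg
These matches are descriptions of sequence, and no binding was measured.

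Depth and the agreement of libraries with their labels set how far each experiment could be read. Total counts were 18300628 to 23724398 in the inducible libraries. In the transient libraries they were 5729294 to 5972396 except for the second doxorubicin library, which had 24713822. ZMYND8 itself had 209 and 208 CPM (counts scaled per 1000000 of the library) in GFP cells and 922 and 927 CPM in ZMYND8 cells without drug, and stayed above GFP cells at 6 and 48 h. In the transient libraries ZMYND8 had 219 and 199 CPM in control, 182 and 123 CPM with doxorubicin and 159.8 and 125 CPM in the libraries labelled ZMYND8 plus doxorubicin, where it did not pass the test against doxorubicin alone (log2 -0.09 ± 0.23, SE, adjusted p = 1), so these libraries are named by label only. The second doxorubicin library and the second labelled ZMYND8 plus doxorubicin library lay closer to each other (chi-square per degree of freedom 1.39) than any other transient pair (9.71 to 55.6), and whether a library carries the wrong label was not tested. Both tables were counted with a strand setting, yet antisense genes inside exons had 1.43 to 1.62 times the read density of their sense gene in the transient libraries against 0.0711 to 0.100 times in the inducible ones, so transient counts do not separate the strands. The labelled cell type was borne out by VIM, CD44, AXL, KRT18 and CAV1 from 296 CPM upward in every library and by ESR1 and PGR below 1 CPM, while the leukocyte gene PTPRC reached 3.95 CPM and the endothelial gene PECAM1 5.59 CPM at most. CDH1 and ERBB3 had been chosen with ESR1 and PGR as genes expected absent or low in this line. CDH1 reached 21.7 CPM and ERBB3 21.3 CPM at most, so neither stayed below 1 CPM.

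The best known inducible HSP70 genes, HSPA1A and HSPA1B, could not be measured, and neither could their neighbour HSPA1L. HSPA1A (chr6:31815464-31817946), HSPA1B (chr6:31827738-31830254) and HSPA1L (chr6:31809619-31815283) had 0 to 3 counts in every one of the 18 libraries and were not tested. They lie on chromosome 6 between 30000000 and 33000000, where 78 of 129 protein-coding genes (60.5%) had at most 3 counts in every inducible library against 152 of 909 (16.7%) on the rest of the chromosome. In the transient libraries 90 of 129 genes there (69.8%) were at this level against 221 of 909 (24.3%). Read pairs that mapped to several places were left out of the counting, and HSPA1A and HSPA1B are near-identical copies, so their values are no evidence on their expression and the part of the counting in it was not tested. HSPA6, CRYAB and these 3 genes failed the filter on low counts in the transient table, which left 32 members tested there and 34 in the inducible table.

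Levels differed widely among the members. Per length, the most abundant in GFP cells without drug were HSP90AB1 at 2299 ± 16.7 TPM (counts per exon length, scaled to a sum of 1000000, mean ± SD, n = 2), HSP90AA1 at 1212 ± 9.90 TPM, HSPA5 at 941 ± 19.0 TPM, HSPA8 at 855 ± 19.7 TPM and HSP90B1 at 774 ± 7.52 TPM. At the other end, HSPA2 had 0.997 ± 0.114 TPM, HSPA6 had 0.701 ± 0.137 TPM and CRYAB had no count in either library. The regulator HSF1 had 69.6 ± 4.59 TPM and HSF2 35.9 ± 0.552 TPM. BAG3 at 140.0 ± 1.25 TPM and AHSA1 at 141 ± 0.663 TPM were neighbours in this order and differed by less than the summed spread of their libraries. In ZMYND8 cells without drug, the same 2 HSP90 genes led, with 3032 ± 269 and 2220.2 ± 23.2 TPM, and HSPA8 at 1798 ± 16.4 TPM now stood above HSPA5 at 1098 ± 18 TPM.

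**Figure D1:**
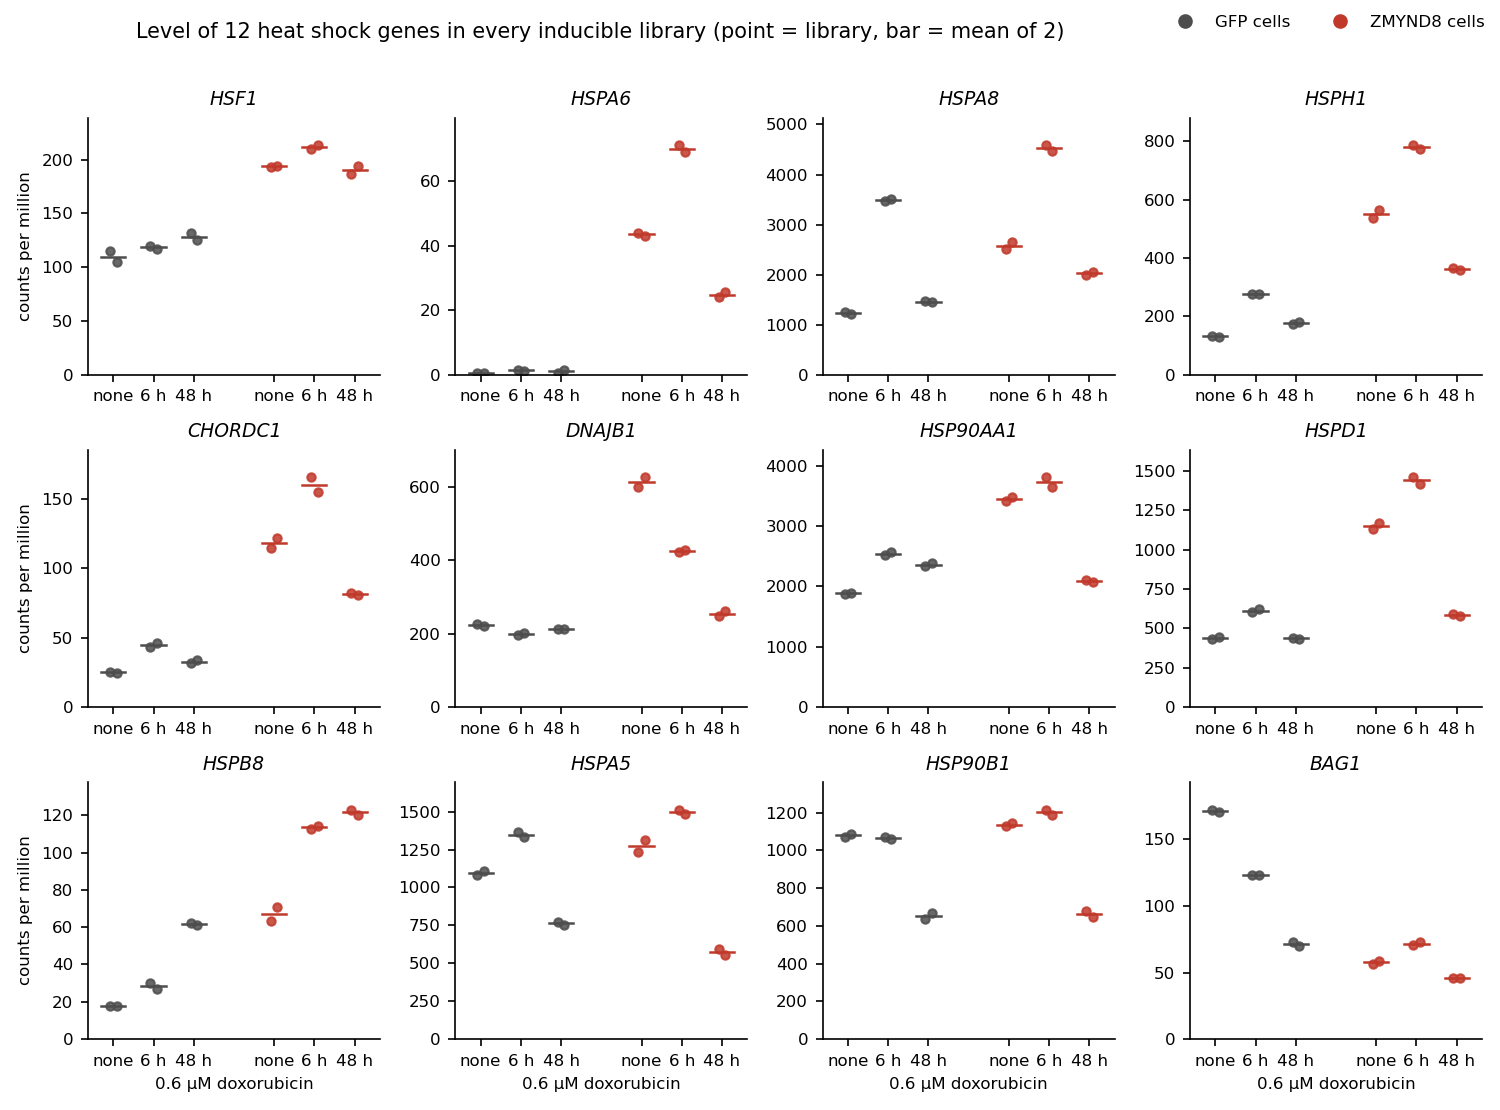
Normalised counts (CPM) of 12 members in each of the 12 inducible libraries, GFP cells in grey and ZMYND8 cells in red, without doxorubicin and after 6 and 48 h in 0.6 µM doxorubicin. Points are libraries and bars the mean of 2. HSPA6 stayed below 1.5 CPM in GFP cells and between 24.0 and 71.1 CPM in ZMYND8 cells, and BAG1 was lower in every ZMYND8 library than in the untreated GFP libraries.

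ZMYND8 cells carried more chaperone mRNA than GFP cells before any doxorubicin was given. Of the 34 members tested, 27 were higher and 3 lower, where 28.7% and 29.5% of all 18801 genes tested were called in these directions (edgeR quasi-likelihood test, Benjamini-Hochberg adjusted p of at most 0.05). The median log2 fold change was 0.61 over the members tested (0.60 without CRYAB, which had no count in untreated GFP cells) and 0.00 over all genes. Without CRYAB, which had to be higher to pass the filter on low counts, 26 of 33 were higher, 10 of them with at least a 2-fold difference. With CRYAB, the 27 held all 8 members with a heat shock element in the promoter and 19 of the other 26. These 26 include CRYAB, FKBP4, HSF1 and HSPA14, whose promoters were not searched, and CRYAB is among the 19. In bulk RNA a larger share of expressing cells and more RNA per cell cannot be told apart.

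Among the HSP70 genes, HSPA6 showed the widest gap. This gene, on chromosome 1 (chr1:161524540-161526894), is silent in most unstressed cells and is switched on by strong heat shock. It had 0.558 and 0.422 CPM in GFP cells and 44 and 43.0 CPM in ZMYND8 cells, or 11 and 8 against 788 and 982 counts. The groups did not overlap, as in 76.7% of all genes tested, and the log2 fold change was 6.45 ± 0.18 (SE, adjusted p = 3e-21). Its near-identical relative HSPA7 had 0 to 13 counts in the inducible libraries, so few unique pairs were placed there. HSPA8, the constitutive HSP70 that clears clathrin coats and folds new proteins, had 1252 and 1209.5 CPM in GFP cells against 2516 and 2644 CPM in ZMYND8 cells and was 2.10-fold higher (adjusted p = 2.8e-19). HSPA2, best known from the testis, and HSPA14, a ribosome-bound relative, did not pass the test, with log2 fold changes of 0.02 ± 0.32 and 0.11 ± 0.07 (SE).

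All 3 HSP110 genes were higher. HSPH1, the exchange factor that with HSP70 and DNAJB1 pulls apart aggregates, had 135 and 129 CPM in GFP cells and 538 and 565 CPM in ZMYND8 cells. Both ZMYND8 libraries lay above both GFP libraries, where 76.7% of all genes tested did not overlap either way. The difference was 4.18-fold (log2 2.06 ± 0.04, SE, adjusted p = 3.7e-24). HSPA4 and HSPA4L of the same family were higher by 0.54 and 0.49 on the log2 scale.

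HSP90 and its co-chaperones were higher as well, all 6 of 6. CHORDC1, which binds the HSP90 nucleotide pocket and rises with heat shock, had 25.4 and 24.5 CPM in GFP cells and 114 and 121 CPM in ZMYND8 cells. This difference was 4.73-fold (log2 2.24 ± 0.06, SE, adjusted p = 1.7e-21), and its promoter held the 3 overlapping elements printed above. HSP90AA1, the stress-inducible HSP90, had 1878 and 1897 CPM in GFP cells against 3409.9 and 3485 CPM in ZMYND8 cells and was 1.83-fold higher (adjusted p = 1.1e-17). HSP90AB1, its constitutive twin, was higher by 0.40 on the log2 scale, less than STIP1 (1.04), which hands clients from HSP70 to HSP90, and FKBP4 (0.97), the immunophilin of steroid receptors. AHSA1, the activator of the HSP90 ATPase, was higher by 0.55 on the same scale.

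J-domain proteins, which deliver clients to HSP70, were higher in 5 of 6 cases. DNAJB1, the main heat-inducible member, had 225 and 220.4 CPM in GFP cells and 599 and 626 CPM in ZMYND8 cells, a 2.75-fold difference (log2 1.46 ± 0.04, SE, adjusted p = 3.1e-21). DNAJB4 was higher by 1.21, DNAJB2 by 0.60, DNAJA1 by 0.50 and DNAJB6 by 0.37 on the log2 scale. DNAJA2 was the exception, at 136 and 131 CPM in GFP cells and 118 and 114 CPM in ZMYND8 cells. It was lower in ZMYND8 cells (log2 -0.20 ± 0.05, SE, adjusted p = 0.00042).

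The BAG genes parted ways. BAG1, a nucleotide exchange factor that also links HSP70 to the proteasome and to survival signalling, had 172 and 170.2 CPM in GFP cells and 56.4 and 59.0 CPM in ZMYND8 cells. The GFP libraries lay far above the ZMYND8 libraries, where 76.7% of all genes tested did not overlap either way. BAG1 was 2.96-fold lower in ZMYND8 cells (log2 -1.57 ± 0.05, SE, adjusted p = 1.2e-20). BAG3, the heat-inducible relative that sends clients to autophagy, had 114 and 115 CPM in GFP cells and 197 and 213 CPM in ZMYND8 cells and was 1.80-fold higher (adjusted p = 2.7e-14). BAG1 lies on chromosome 9 (chr9:33247820-33264720) and BAG3 on chromosome 10 (chr10:119651370-119677819).

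Small heat shock proteins, which hold unfolded clients without using ATP, were higher for HSPB8 and HSPB1. HSPB8, the partner of BAG3, had 17.6 and 17.6 CPM in GFP cells and 63.4 and 70.9 CPM in ZMYND8 cells, a 3.83-fold difference (adjusted p = 6.8e-19). HSPB1 (HSP27) had 247 and 232 CPM against 334 and 357 CPM and was higher by 0.53 ± 0.05 (SE) on the log2 scale. CRYAB, the lens crystallin, had 0 and 0 counts in GFP cells and 9 and 11 counts in ZMYND8 cells, which against a floor of 3 counts per GFP library made it at least 3.17-fold higher. It passed the filter on low counts only through the libraries in which it was higher, so its call is no support for the group.

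Of the chaperones of the organelles, the 3 mitochondrial genes were all higher, led by HSPD1 (HSP60) with 433 and 445 CPM in GFP cells against 1134 and 1169.9 CPM in ZMYND8 cells, a 2.62-fold difference (adjusted p = 2.5e-21). Its lid HSPE1 (HSP10), transcribed from the same region on the opposite strand, was 2.38-fold higher, and HSPA9 (mortalin) 1.69-fold. HSPE1 shares 10.5% of its exon bases with a read-through gene on its strand and has 26 named pseudogenes, so its level is uncertain. Of the 5 endoplasmic reticulum genes, DNAJB9 and HSPA5 were called higher, where 28.7% of all genes tested were. DNAJB9, a J-domain cofactor of HSPA5, was higher by 0.59 on the log2 scale, and HSPA5 had 1081 and 1110.1 CPM against 1236 and 1312 CPM, higher by 0.22. HSP90B1 at 0.07 ± 0.04 (SE) and DNAJC3 at 0.00 ± 0.06 (SE) did not pass the test. HSPA13, a small HSP70-like protein of microsomes, was called lower at 144 and 140.3 CPM against 153 and 154 CPM in GFP cells, but leaving out any one of the 4 libraries ended the call of its log2 fold change of -0.11 (adjusted p 0.091 to 0.21 against 0.043).

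Both heat shock factors were higher. HSF1 had 115 and 104 CPM in GFP cells and 193 and 194 CPM in ZMYND8 cells. Its libraries did not overlap, as in 76.7% of all genes tested, and the difference was 1.77-fold (log2 0.82 ± 0.05, SE, adjusted p = 1.4e-14). HSF2, which pairs with HSF1 and works in development, had 29.1 and 28.4 CPM against 45.6 and 43.2 CPM and was higher by 0.62 on the same scale. HSF1 is controlled mainly by binding to chaperones and by phosphorylation, and these data hold mRNA alone.

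**Figure D2:**
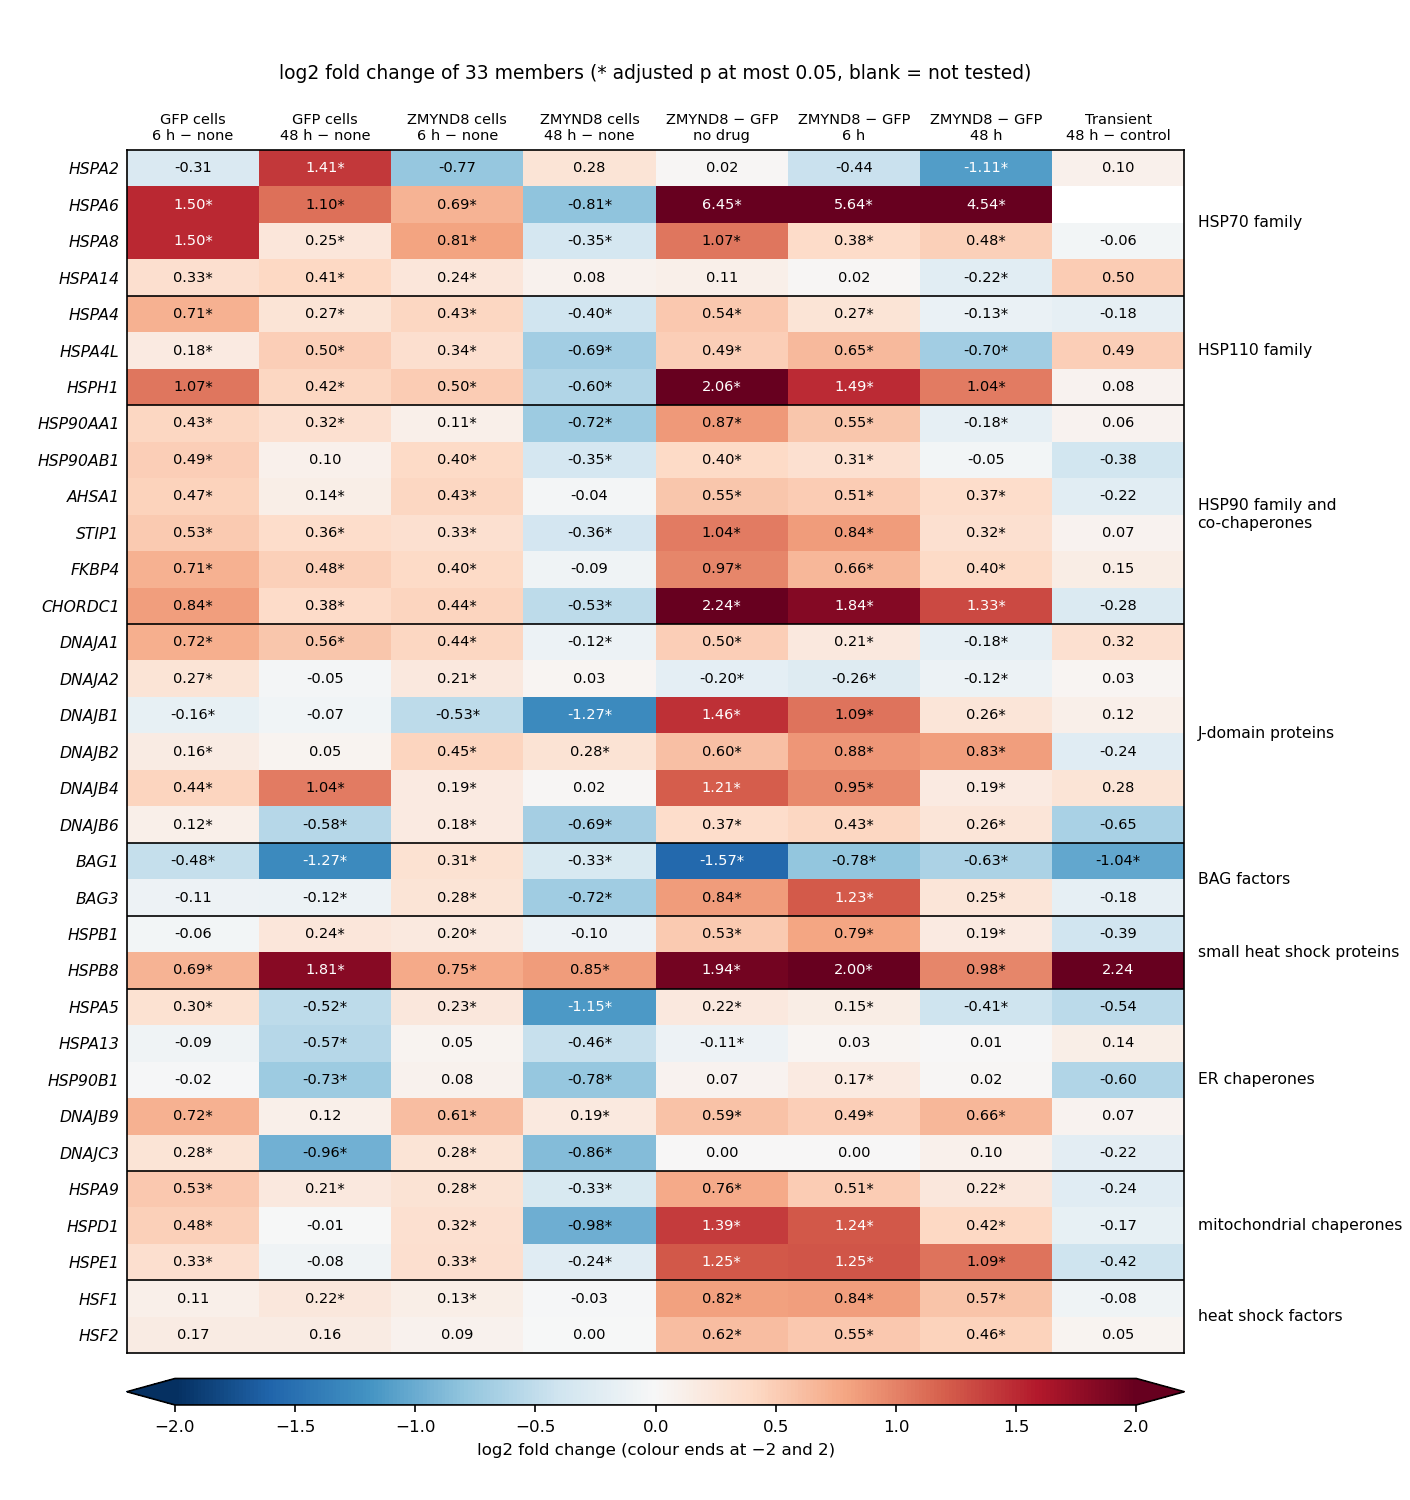
Log2 fold change of 33 members (rows, by role) in 8 comparisons (columns), red for higher and blue for lower, with a star where the edgeR adjusted p was at most 0.05 and blank where the gene was not tested. CRYAB is not drawn because its untreated GFP libraries had no count. The columns of 6 h are mostly red, the ZMYND8 column of 48 h mostly blue, and the transient column has 1 star, BAG1.

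Upon 6 h of doxorubicin, most chaperones rose in GFP cells. Of the 34 members tested, 24 were higher and 2 lower, against 22.1% higher and 25.8% lower among all genes tested. The median log2 fold change was 0.38 over the members tested (0.33 without CRYAB) and -0.05 over all genes. All 6 HSP90 genes and co-chaperones, all 3 HSP110 genes and all 3 mitochondrial genes were among those that rose.

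HSPA8, HSPA6 and HSPH1 were the called members with the largest rises. HSPA8 had 1252 and 1209.5 CPM without drug and 3465 and 3514 CPM at 6 h, and rose 2.84-fold (adjusted p = 4.6e-21). HSPH1 went from 135 and 129 CPM to 277 and 278 CPM and rose 2.10-fold (adjusted p = 2.6e-17). HSPA6 rose as well but stayed near the floor, from 11 and 8 counts to 28 and 25 counts (2.84-fold, adjusted p = 0.0012). CHORDC1 rose by 0.84, DNAJA1 by 0.72, DNAJB9 by 0.72, FKBP4 by 0.71 and HSPA4 by 0.71 on the log2 scale. HSP90AA1 went from 1878 and 1897 CPM to 2523 and 2564 CPM, a rise of 0.43 on this scale.

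BAG1 and DNAJB1 moved against the others. BAG1 had 172 and 170.2 CPM without drug and 123 and 123 CPM at 6 h and fell by 0.48 ± 0.04 (SE) on the log2 scale (adjusted p = 3.7e-10). DNAJB1 had 225 and 220.4 CPM and then 197 and 202 CPM, and fell by 0.16 ± 0.04 (SE) on the log2 scale (adjusted p = 0.0021). HSF1, at 120.2 and 117 CPM, did not pass the test at 6 h, with a log2 fold change of 0.11 ± 0.05 (SE), and was called without the first untreated GFP library (0.19, adjusted p = 0.01) and under other scaling and filters. HSF2 at 0.17 ± 0.07 (SE) did not pass it either.

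ZMYND8 cells rose at 6 h from their higher starting level. Of the 34 members tested, 28 were higher and 1 lower, against 21.8% and 19% of all genes tested, and 24 members rose in both lines against 16.1% of all genes. In GFP cells 8 of 8 carriers of the heat shock element and 16 of the other 26 members rose, and in ZMYND8 cells 8 of 8 and 20 of 26. Among all genes tested, 22.1% rose in GFP cells and 21.8% in ZMYND8 cells. The other 26 include CRYAB, FKBP4, HSF1 and HSPA14, whose promoters were not searched. The median log2 fold change was 0.30 over the members tested (0.31 without CRYAB) and -0.01 over all genes. HSPA8 went from 2516 and 2644 CPM to 4583 and 4474 CPM, and rose 1.76-fold (adjusted p = 9.8e-16). HSPB8 went from 63.4 and 70.9 CPM to 113 and 114 CPM (1.68-fold, adjusted p = 7.8e-12), and HSPA6 from 44 and 43.0 CPM to 71.1 and 69.1 CPM (1.61-fold, adjusted p = 8.3e-08). Both BAG genes rose in these cells, BAG1 by 0.31 and BAG3 by 0.28 on the log2 scale. HSF1 and HSP90AA1 rose by 0.13 and 0.11, near the threshold (adjusted p = 0.02 and 0.011), and leaving out the first untreated ZMYND8 library ended both calls (adjusted p = 0.08 and 0.092). DNAJB1 was the member that fell, from 599 and 626 CPM to 423 and 427 CPM (log2 -0.53 ± 0.04, SE, adjusted p = 1.6e-11).

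The early rise differed in size between the lines. An interaction term, the change in ZMYND8 cells minus that in GFP cells, was called for 13 of the 34 members tested, 4 positive and 9 negative, against 7.86% and 5.52% of all genes tested. Scaling by total counts gave 3 positive and 12 negative members, with 4.37% and 9.2% of all genes. HSPA8 had -0.69 ± 0.05 (SE, adjusted p = 4.5e-10) and HSPH1 -0.57 ± 0.06 (SE, adjusted p = 8.2e-08), so both rose less in ZMYND8 cells on the log2 scale, while their CPM at 6 h was the higher of the lines. The same held for CHORDC1 (-0.40), HSP90AA1 (-0.32), DNAJA1 (-0.29) and HSPA4 (-0.27). BAG1 was the reverse, with an interaction of 0.79 ± 0.07 (SE, adjusted p = 3.7e-09), having fallen in GFP cells and risen in ZMYND8 cells.

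By 48 h, most cytosolic chaperones of GFP cells were above their untreated level while those of the endoplasmic reticulum had fallen. Of the 34 members tested, 19 were higher and 7 lower than in untreated GFP cells, against 32.4% and 31.8% of all genes tested, with a median log2 fold change of 0.22 over the members and 0.03 over all genes. Without CRYAB, 18 of 33 were higher. Of the 24 members that rose at 6 h, 18 were lower again at 48 h than at 6 h, as were 51.8% of the 4163 genes in all that rose at 6 h. Between these times 30.2% of all genes tested were lower and 32% higher. Across the members tested, 6 were higher and 21 lower at 48 h than at 6 h. HSPA8 came down to 1470.5 and 1448 CPM at 48 h (48 against 6 h -1.26 ± 0.04, SE, adjusted p = 2.1e-20), and DNAJC3 by about as much (-1.24). Scaling by total counts, which moved the median of all genes to 0.27, gave 28 members higher and 6 lower, with 45.2% and 21.2% of all genes, and turned BAG3 from -0.12 to 0.12, so that small differences at this time depend on the scaling. Between 48 and 6 h it gave 12 members higher and 14 lower, with 46.4% and 18% of all genes, and turned DNAJA1, STIP1, FKBP4 and HSP90AA1 to 0.08, 0.09, 0.02 and 0.14.

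Cytosolic chaperones above their untreated level at 48 h in GFP cells included all 4 tested HSP70 genes and all 3 HSP110 genes. HSPB8 went from 17.6 and 17.6 CPM to 62.5 and 61.2 CPM and rose 3.51-fold (log2 1.81 ± 0.07, SE, adjusted p = 2.1e-18). HSPA2 was low but rose from 31 and 35 counts to 94 and 117 counts (2.66-fold, adjusted p = 8.4e-05). DNAJB4 went from 18.7 and 18.5 CPM to 40.2 and 36.5 CPM (2.06-fold). HSPA6, on 14 and 35 counts, was called at 1.10 (adjusted p = 0.013) only with both libraries, since without the second one at 48 h it was 0.33 (adjusted p = 0.61) and without the second untreated one 0.91 (adjusted p = 0.1). HSPA8, HSP90AA1, HSPH1 and DNAJA1 remained above their untreated level by 0.25, 0.32, 0.42 and 0.56 on the log2 scale. HSPD1, the mitochondrial chaperonin, had 433 and 445 CPM without drug, 602 and 619.5 CPM at 6 h and 439 and 435 CPM at 48 h, so that it rose by 0.48 on the log2 scale at 6 h and did not pass the test at 48 h (-0.01 ± 0.04, SE, adjusted p = 0.88), although total count scaling made it 0.24 and called. HSF1 had 132 and 125 CPM at 48 h (log2 0.22 ± 0.05, SE, adjusted p = 0.00015). CRYAB was called on 2 and 6 counts against 0 and 0, too few to give a fold beyond at least 1.10-fold.

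Endoplasmic reticulum chaperones were low at 48 h in GFP cells, 4 of 5 falling, against 31.8% of all genes tested. HSP90B1 had 1073 and 1086 CPM without drug and 634 and 668 CPM at 48 h, a 1.66-fold fall (log2 -0.73 ± 0.04, SE, adjusted p = 2e-15). DNAJC3 (p58IPK), a cofactor that also restrains the kinases PERK and PKR, went from 80.9 and 76.3 CPM to 42.6 and 38.2 CPM and fell 1.95-fold (adjusted p = 1.3e-12). HSPA5 rose at 6 h and then fell, with 1081 and 1110.1, then 1366 and 1329.7 and then 771 and 755 CPM (48 h against none -0.52 ± 0.04, SE, adjusted p = 5.3e-12). HSPA13 fell by 0.57 ± 0.05 (SE) on the log2 scale. DNAJB9 did not pass the test, at 0.12 ± 0.07 (SE). Outside this compartment BAG1 fell further, to 72.7 and 69.8 CPM (2.40-fold below none, adjusted p = 4.1e-19), DNAJB6 fell by 0.58 ± 0.04 (SE) on the log2 scale and BAG3 had -0.12.

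In ZMYND8 cells, most chaperones were below their untreated level at 48 h. Of the 34 members tested, 3 were higher and 21 lower, against 31.6% and 30.8% of all genes tested, and the median log2 fold change was -0.35 over the members and 0.05 over all genes. Scaling by total counts gave 11 members higher and 19 lower, with 42.9% and 21.2% of all genes, and turned DNAJA1 from -0.12 to 0.09. DNAJB1 went from 599 and 626 CPM to 248 and 261 CPM and fell 2.41-fold (log2 -1.27 ± 0.04, SE, adjusted p = 4.9e-20). HSPA5 fell from 1236 and 1312 CPM to 591 and 558 CPM (2.22-fold, adjusted p = 4.5e-19). HSPD1 fell from 1134 and 1169.9 CPM to 593 and 576 CPM (1.97-fold, adjusted p = 3.2e-18). For these 3 genes both libraries at 48 h lay below both untreated ones, where 80.3% of all genes tested did not overlap either way.

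The 3 members that rose at 48 h in ZMYND8 cells were HSPB8, DNAJB2 and DNAJB9. HSPB8 reached 123 and 120.4 CPM (1.81-fold, adjusted p = 7.6e-14). It was the 1 member called higher in both lines at this time, against 22.7% of all genes tested. DNAJB2, a J-domain protein best known from neurons that sorts clients to the proteasome, went from 92.1 and 90.2 CPM to 115 and 107 CPM (log2 0.28 ± 0.05, SE, adjusted p = 5.1e-06). DNAJB9 went from 37.2 and 37.5 CPM to 42.6 and 42.7 CPM, a rise of 0.19 on this scale (adjusted p = 0.01), and leaving out any one of the 4 libraries ended the call (adjusted p 0.052 to 0.09). HSF1 at 187 and 194 CPM did not pass the test against none (-0.03 ± 0.04, SE), and with total count scaling it was called higher, at 0.18.

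**Figure D3:**
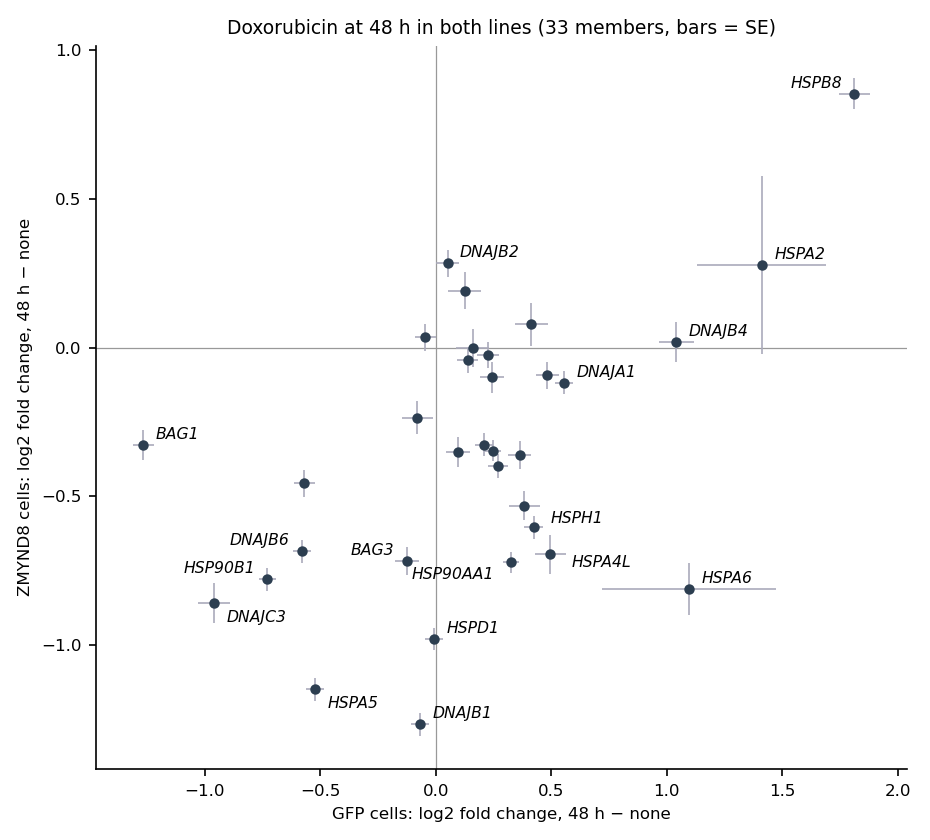
Log2 fold change at 48 h of doxorubicin against none in GFP cells (x axis) and ZMYND8 cells (y axis) for 33 members, with the SE of each as bars. HSPB8 lies upper right, BAG1 and 4 endoplasmic reticulum chaperones lie in the lower left, and HSPA6, HSPA4L, HSPH1 and HSP90AA1 lie lower right, above 0 in GFP cells and below 0 in ZMYND8 cells.

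At 48 h of doxorubicin, 10 members were called in opposite directions in the 2 lines, higher in GFP cells and lower in ZMYND8 cells, as were 1.62% of all genes tested. They were HSPA4, HSPA4L, HSPA6, HSPA8, HSPA9, HSP90AA1, HSPH1, DNAJA1, CHORDC1 and STIP1, where HSPA6 rested on few GFP counts (the call in GFP cells was lost without the second untreated library, at 0.91, and without the second at 48 h, at 0.33) and DNAJA1 turned to 0.09 in ZMYND8 cells under total count scaling. The 7 members that fell in both lines, as 23.8% of all genes did, were HSPA5, HSPA13, HSP90B1, DNAJB6, DNAJC3, BAG1 and BAG3. Of these, BAG3 turned to 0.12 in GFP cells under total count scaling. Of the 8 carriers of the heat shock element, 5 were higher at 48 h in GFP cells, DNAJB6 was lower, and HSP90AB1 and HSPD1 did not pass the test, while 14 of the other 26 members were higher and 6 lower. In ZMYND8 cells all 8 carriers were lower, and 13 of the other 26 were lower and 3 higher. Among all genes tested, 32.4% were higher and 31.8% lower in GFP cells, and 31.6% higher and 30.8% lower in ZMYND8 cells. The other 26 include CRYAB, FKBP4, HSF1 and HSPA14, whose promoters were not searched. All of these were among the 14 higher in GFP cells, CRYAB on few counts, and none was called in ZMYND8 cells. Tested as an interaction, 26 of the 34 members differed between the lines, 2 positive and 24 negative (23 of 33 without CRYAB), against 12.7% and 15.8% of all genes tested. The median interaction was -0.58 over the members tested and -0.01 over all genes. No called member turned sign under either other scaling.

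The negative interactions lay mostly in the cytosolic families. All 4 tested HSP70 genes, all 3 HSP110 genes and all 6 HSP90 genes and co-chaperones were negative, against 15.8% of all genes tested. HSPA5 was the 1 of 5 endoplasmic reticulum genes called, near that share, and the difference between compartments was not tested. DNAJB1 had -1.20 ± 0.06 (SE, adjusted p = 1.5e-14), HSPA4L -1.19, HSP90AA1 -1.04, HSPH1 -1.03, DNAJB4 -1.02 and HSPD1 -0.97. HSPA6 had -1.91 ± 0.38 (SE, adjusted p = 0.00033), which became -1.15 (adjusted p = 0.1) without the second GFP library at 48 h. CRYAB, with 0 and 0 and then 2 and 6 counts in GFP cells and 9 and 11 and then 4 and 9 in ZMYND8 cells, gives no bound, and its call (adjusted p = 0.028) was lost without either untreated GFP library (0.11 and 0.1), the second GFP library at 48 h (0.17), the second untreated ZMYND8 library (0.052) or the first ZMYND8 library at 48 h (0.077). HSF1 was called at -0.25 (adjusted p = 0.0037) and not without the second untreated GFP library (-0.18, adjusted p = 0.058). HSP90B1 at -0.05 ± 0.05 (SE), DNAJC3 at 0.10 ± 0.10 (SE) and HSPA13 at 0.11 ± 0.06 (SE) did not pass the test. BAG1 and DNAJB2 were positive, at 0.94 and 0.23, where DESeq2 called 1 member positive and 22 negative.

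The gap between the lines was smaller at 48 h for most members. At 6 h, 28 of the 34 members tested were higher in ZMYND8 cells (27 of 33 without CRYAB) and 2 lower, against 28.9% and 26.6% of all genes tested, and at 48 h 20 were higher and 9 lower, against 28.4% and 31.6%. The median difference over the members tested was 0.61 without drug, 0.55 at 6 h and 0.26 at 48 h, and over all genes 0.00, 0.00 and -0.04. A total of 20 members were higher at all 3 times, against 17.3% of all genes tested. At 48 h HSPA6 had 0.621 and 1.47 CPM in GFP cells and 24.0 and 25.5 CPM in ZMYND8 cells, and its difference went from 6.45 without drug to 5.64 at 6 h and 4.54 at 48 h on the log2 scale. CHORDC1 had 43.4 and 45.8 against 165 and 155 CPM at 6 h and 31.4 and 33.7 against 82.3 and 81.0 CPM at 48 h, with differences of 1.84 and 1.33. HSPE1 had 30.3 and 33.4 CPM in GFP cells and 68.3 and 67.8 CPM in ZMYND8 cells at 48 h, a difference of 1.09 after 1.25 without drug. The ZMYND8 libraries of these genes lay above the GFP libraries of the same time. At 6 and 48 h, 74.1% and 80.4% of all genes tested did not overlap either way. HSPB8 had 29.8 and 26.9 CPM in GFP cells against 113 and 114 CPM in ZMYND8 cells at 6 h, a difference of 2.00 after 1.94 without drug, and 0.98 at 48 h.

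Some members crossed over. HSPA4, HSPA4L, HSPA5, HSP90AA1 and DNAJA1 were higher in ZMYND8 cells without drug and lower at 48 h, as were 2.06% of all genes tested. HSPA4L had 45.8 and 42.9 CPM in GFP cells at 48 h and 26.9 and 27.6 CPM in ZMYND8 cells (log2 -0.70 ± 0.07, SE, adjusted p = 4.4e-10). HSP90AA1 had 2335 and 2389 CPM in GFP cells and 2109 and 2073 CPM in ZMYND8 cells at this time. HSPA2 was lower in ZMYND8 cells at 48 h, on 45 and 56 counts against 94 and 117 (log2 -1.11 ± 0.26, SE, adjusted p = 0.00068). DNAJA2 was lower in ZMYND8 cells at 6 h too (165 and 158 CPM against 139 and 130.4 CPM, log2 -0.26 ± 0.04, SE). BAG1 was below GFP cells each time, at -1.57 without drug, -0.78 at 6 h (123 and 123 CPM against 70.9 and 72.5 CPM) and -0.63 at 48 h (72.7 and 69.8 CPM against 46.0 and 46.0 CPM) on the log2 scale. The 3 comparisons share no libraries with each other, whereas the changes within each line share the untreated ones with the gap at the start.

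**Figure D4:**
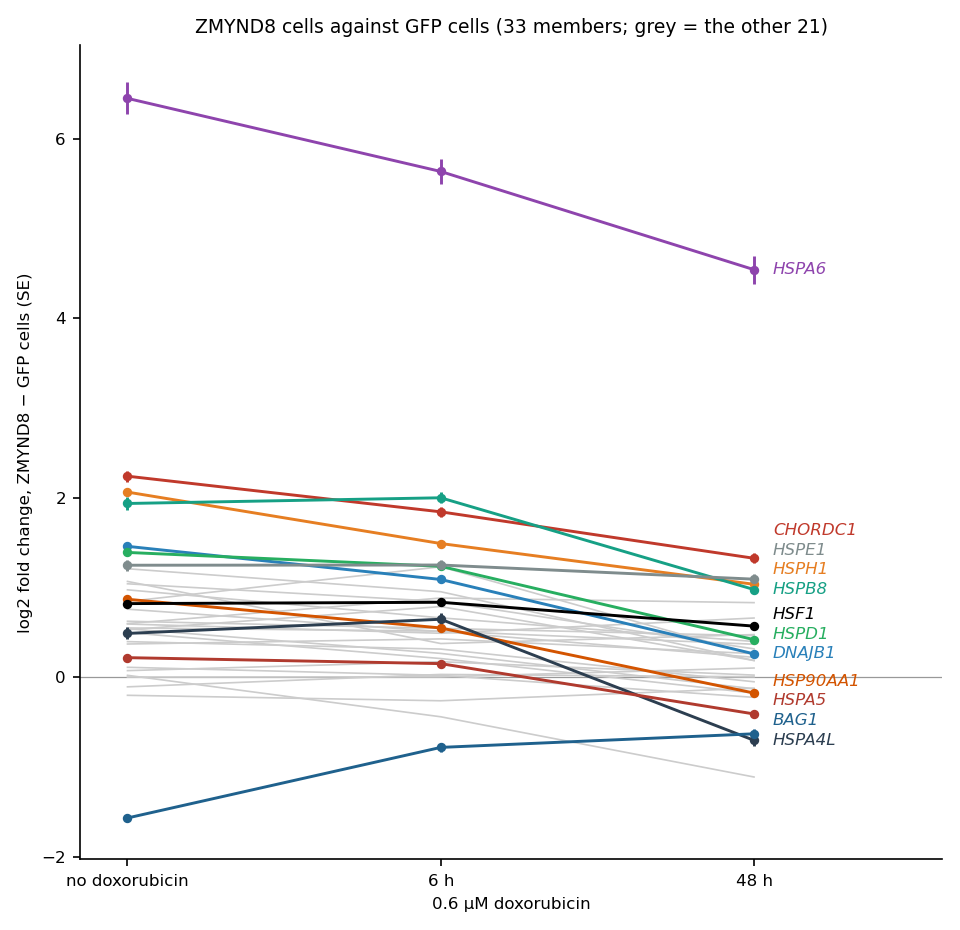
Log2 fold change of ZMYND8 cells over GFP cells without doxorubicin and at 6 and 48 h for 33 members, 12 coloured with their SE and the other 21 in grey. HSPA6 is highest throughout, from 6.45 to 4.54, most lines come down between 6 and 48 h, and BAG1 is lowest without drug.

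In the transient experiment, few members passed the test. Of the 32 tested, 1 was lower and 0 higher at 48 h of doxorubicin, against 2.15% lower and 2.98% higher among the 15697 genes tested. An unadjusted p of at most 0.05 was reached by 5 members (15.6%) against 22.2% of all genes, DESeq2 called 3 members (9.38%) against 7.5%, and with the replicate number as a block 5 members (15.6%) were called against 15.4%. The block added HSPB8 (adjusted p = 0.021), HSP90B1 (0.025), HSPA5 (0.041) and DNAJB6 (0.016). Of these, HSPB8 passed the filter on low counts only through treated libraries, so its call is no support for the group. The median log2 fold change was -0.07 over the members and 0.00 over all genes. Libraries of control and doxorubicin did not overlap in 50.4% of all genes tested. BAG1 had 119 and 125 CPM in control and 56.1 and 62.0 CPM with doxorubicin and fell 2.06-fold (log2 -1.04 ± 0.20, SE, adjusted p = 0.017). Its groups did not overlap, but leaving out the first doxorubicin library gave an adjusted p of 0.076, the second 0.1, and both libraries of the near-identical pair 0.097, so that no member was then called. HSPB8 had 6 and 2 counts in control and 13 and 115 counts with doxorubicin, in libraries of unequal depth, and at 2.24 ± 0.62 (SE) did not pass the test (adjusted p = 0.061), but did with the block, total count scaling or no filter. Its control libraries had at most 1.14 CPM against at least 2.26 CPM with doxorubicin, so none of these calls is support for the group.

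Libraries labelled ZMYND8 plus doxorubicin had 2 members lower than control, BAG1 and DNAJB6, and 0 higher, against 2.97% lower and 3.85% higher among all genes tested. An unadjusted p of at most 0.05 was reached by 5 members (15.6%) against 24.4% of all genes, DESeq2 called 3 members (9.38%) against 9.26%, and with the replicate number as a block 6 members (18.8%) were called against 17.8%, adding HSPB8, HSP90B1, HSPA5 and HSPA14 (adjusted p = 0.026, 0.0087, 0.044 and 0.042). Here too HSPB8 passed the filter on low counts only through treated libraries, so its call is no support for the group. BAG1 had 52.6 and 66.1 CPM (log2 -1.04 ± 0.20, SE, adjusted p = 0.015). DNAJB6, which keeps aggregation-prone proteins in solution, had 434 and 429 CPM in control and 263 and 240.1 CPM in these libraries, and fell by 0.78 ± 0.20 (SE) on the log2 scale (adjusted p = 0.043). Leaving out any one of the 4 libraries ended the call of DNAJB6 (adjusted p 0.072 to 0.22), leaving out the first labelled library ended that of BAG1 (adjusted p = 0.13), and without both libraries of the near-identical pair BAG1 remained (adjusted p = 0.032) and DNAJB6 did not (0.38). Against doxorubicin alone, 0 members and 0% of all genes tested were called by edgeR, with 0 members and 0.344% of all genes at an unadjusted p of at most 0.05, and 0 called by DESeq2 or with the block. Without both libraries of the near-identical pair, which stand on opposite sides of this comparison, 0 members and 27 of 16035 genes (0.168%) were called, with 0 members and 1.91% of all genes at an unadjusted p of at most 0.05, and with no filter 0 members and 17 genes were called. The changes of the members ranged there from -0.35 for HSPA13 to 0.38 for HSF1.

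Set beside the GFP cells at 48 h, which share no library with it, the transient experiment had the same sign of change in 20 of the 32 members tested in both, against 74.5% of the 15082 genes tested in both tables. HSPB8 is among these 20, but it passed the filter on low counts only through treated transient libraries, so its sign is no support. Of the 7 members that fell in GFP cells, 6 had a negative value, against 80.6% of all genes that fell there, among them HSP90B1 (1097 and 1158 CPM in control against 808 and 682 CPM, log2 -0.60 ± 0.20, SE, adjusted p = 0.12) and HSPA5 (-0.54 ± 0.22, SE, adjusted p = 0.18), both called with the replicate block (adjusted p = 0.025 and 0.041). HSP90B1 shares 13.9% of its exon bases with genes on the other strand, whose reads these counts do not keep apart. Of the 17 that rose in GFP cells and were tested here, 10 had a positive value, against 83.4% of all genes that rose. HSPB8 is among these 10, with the same limit. HSP90AA1 had 1444 and 1585 CPM in control and 1578 and 1589 CPM with doxorubicin, HSPD1 384 and 449.9 against 348 and 394 CPM and HSF1 192 and 134 against 146 and 161 CPM, and none of these 3 passed the test (adjusted p = 0.9, 0.69 and 0.88). Counts of HSPA6 were 0 to 2 in every transient library, and HSPA8 ran from 789 to 1124 CPM with control and treated libraries overlapping.

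**Figure D5:**
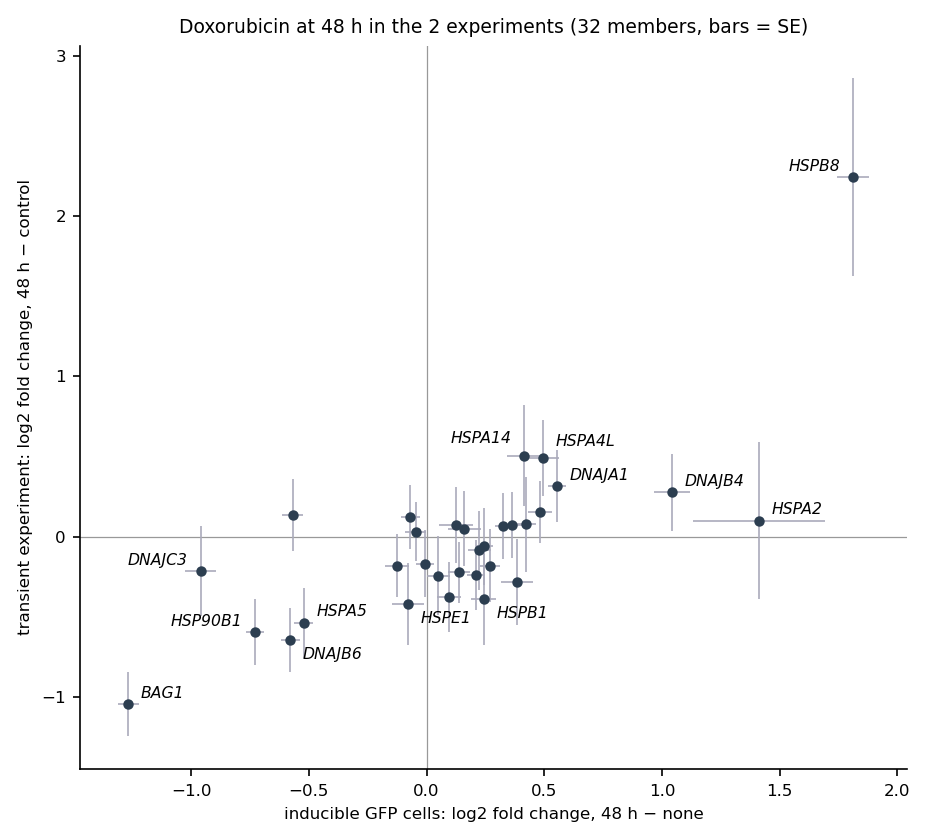
Log2 fold change at 48 h of doxorubicin in inducible GFP cells (x axis) and in the transient experiment (y axis) for the 32 members tested in both, with SE bars, which are wider in the transient experiment. HSPB8, which passed the transient filter on low counts only through treated libraries, lies upper right. BAG1, HSP90B1, DNAJB6 and HSPA5 lie lower left.

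The wider folding pathways gave context from 65 further genes, of which 60 were tested in the inducible table. In untreated ZMYND8 cells 32 of these 60 were higher and 18 lower than in GFP cells, against 28.7% and 29.5% of all genes tested. All 8 subunits of TRiC, the chaperonin for actin and tubulin, were higher. They were also higher at 6 h of doxorubicin in GFP and in ZMYND8 cells, where 22.1% and 21.8% of all genes tested were. At 48 h all 8 had a negative interaction, against 15.8% of all genes tested. Of the 17 genes of endoplasmic reticulum folding and the unfolded protein response, 13 were lower and 3 higher at 48 h in GFP cells and 14 lower and 2 higher in ZMYND8 cells, where 31.8% and 30.8% of all genes were lower and 32.4% and 31.6% higher. Of these 17 genes, 4 were higher and 11 lower in untreated ZMYND8 cells than in GFP cells. Of 14 further co-chaperones of HSP70 and HSP90, 9 were higher and 1 lower at 6 h in GFP cells, against 22.1% and 25.8% of all genes, and 6 higher and 5 lower at 48 h, a split near that of all genes (32.4% and 31.8%). The further small heat shock genes HSPB2, HSPB6 and HSPB7 failed the filter on low counts.

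Single genes of the wider list moved as follows at 48 h in GFP cells. HERPUD1, a membrane protein of endoplasmic reticulum degradation, had 129 and 126 CPM and then 57.6 and 56.0 CPM (2.24-fold lower, adjusted p = 1.1e-15). SEL1L, of the same degradation complex, had 228 and 228 CPM and then 103 and 104 CPM (2.20-fold lower, adjusted p = 5.7e-18). BAG6, a chaperone of tail-anchored proteins, was called lower, on 114 and 41 counts against 48 and 37, but lies in the stretch of chromosome 6 with few counts, and without the first untreated library it was -0.24 (adjusted p = 0.58) and without the second at 48 h -0.91 (adjusted p = 0.051). FKBP5, an HSP90 co-chaperone that answers to glucocorticoids, rose from 77.8 and 77.3 CPM to 205 and 211 CPM (2.68-fold, adjusted p = 1.2e-19) and was also called higher in the transient experiment (log2 1.22 ± 0.20, SE, adjusted p = 0.0092). DNAJC9, a histone chaperone, rose 1.88-fold in GFP cells and by 0.93 on the log2 scale in the transient experiment (adjusted p = 0.024). DNAJC9 had 97.0 and 92.6 CPM and then 179 and 178 CPM in GFP cells. DNAJA4 rose from 3 and 10 counts to 36 and 38 counts (adjusted p = 0.00018), so the size of its rise rests on few untreated counts.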

How the data were processed

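The 6 transient and 12 inducible libraries were made from poly(A) RNA. Per the file headers, the deposited values are raw counts per gene from featureCounts 1.6.4 with GENCODE 31, counting read pairs by strand and leaving out pairs mapped to several places or genes. The paper names TopHat and the submitters' processing notes name Trim Galore, HISAT2, DESeq2 and hg38, so the aligner is not settled. Counts were summed as deposited, with total counts of 5729294 to 24713822 per library, which limits genes of few counts.

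Each table was fitted alone, all its conditions in 1 model, with edgeR 4.0.16 (limma 3.58.1, R 4.3.3) by the quasi-likelihood test, TMM factors and the filter by expression, and p-values were adjusted by Benjamini-Hochberg over all genes of a comparison. A gene was called at an adjusted p of at most 0.05. The study compared its conditions with cuffdiff, which needs reads. With 2 libraries per group the smallest p of an exact two-sided permutation test is 0.333, so none was run. SE is the size of the log2 fold change over the square root of its F value. CPM uses the TMM library sizes and TPM the exon lengths of the count tables. The fit was tested on simulated counts. Figures used matplotlib 3.10.9. Alternatives were RLE and total count scaling, 2 other filters, DESeq2 1.42.0, a replicate block (deviations of same-numbered transient libraries correlated by 0.2 to 0.433 over the 3 pairs of groups, from the data and not from a batch or day in the labels), fits of the compared groups alone, the study's cutoff and leaving out each library. A further one, without both second treated transient libraries, was chosen after seeing the data.

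Members and lists were chosen with earlier results of these data known. Values per library are given for the 3 called members with the largest rise and fall in each comparison with untreated or control cells and between the lines (average log2 CPM of at least 1), the 3 largest interactions, and HSF1, HSPA5, HSP90AA1 and HSPD1. Others named in passing were picked from their role group after their values were seen. Of 66 further pathway genes, 65 matched by symbol and HSPB11 did not. No column of a sample outside the series was present.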

Additional observations from a re-analysis of the deposited data

Results flagged for a closer look

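The response to doxorubicin differed between the GFP and the ZMYND8 line by the interaction test of edgeR. At 6 h, 13 of 34 members passed it, 4 positive and 9 negative, against 7.86% and 5.52% of all genes tested. With total count scaling 3 were positive and 12 negative, against 4.37% and 9.2%. BAG1 had 0.79, HSPA8 -0.69 and HSPH1 -0.57 on the log2 scale, with adjusted p = 3.7e-09, 4.5e-10 and 8.2e-08. At 48 h, 26 of 34 members passed it, 2 positive and 24 negative (23 of 33 without CRYAB), against 12.7% and 15.8% of all genes tested. DNAJB1 had -1.20, HSPA6 -1.91 and CRYAB -5.74, with adjusted p = 1.5e-14, 0.00033 and 0.028, where CRYAB rested on 0 to 11 counts per library and HSPA6 on 8 to 35 counts in the GFP libraries of this contrast. CRYAB had no count in untreated GFP cells, so its fitted value is neither a size nor a bound, and its call was lost on leaving out any one of 5 of the 8 libraries (adjusted p 0.052 to 0.17). HSPA6 was -1.15 (adjusted p = 0.1) without the second GFP library at 48 h. A total of 10 members were called higher at 48 h in GFP cells and lower in ZMYND8 cells, against 1.62% of all genes tested. The untreated ZMYND8 libraries had the higher level of these 10 members, and whether that level bears on the later change was not tested.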

How the results depend on the processing

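Of the comparisons' counts of called members, 140 alternatives stayed within 1.5 times the main count and 27 did not, and of the values of genes named by the fixed rule 1097 kept direction and call, 54 lost the call, 14 gained it and 29 changed sign. Members outside that rule are not in this tally, among them BAG3, DNAJA1, STIP1 and FKBP4, whose turns under total count scaling stand in the report. The study's own cutoff on unadjusted p and fold left 2 of 34 members at 6 h in GFP cells (4.71% of all genes tested), 2 at 48 h (13.2%), 1 at 48 against 6 h (13.1%), 0 at 6 h in ZMYND8 cells (2.73%) and 0 at 48 h (12.4%). It left 6, 4 and 1 between the lines at 0, 6 and 48 h (11.4%, 10.6% and 9.44%), 0 and 2 in the interactions at 6 and 48 h (2.01% and 3.7%), and 2 of 32 in each transient comparison with control (8.7% and 9.84%). At 48 h the members' shares lay below those of all genes under this cutoff and above them by adjusted p, in both lines and between them, with no test of the difference. In the transient comparison of doxorubicin with control (1 member called), total count scaling gave 2, no filter 2, DESeq2 3 and leaving out both second treated libraries 0, and leaving out 1 library gave 0 to 1. For libraries labelled ZMYND8 plus doxorubicin against control (2 called), total count scaling gave 1, no filter 4, the compared groups alone 1, leaving out both second treated libraries 1 and leaving out 1 library 0 to 1. Deviations of same-numbered inducible libraries correlated by -0.128 to 0.05 over 15 pairs of groups, so these share only a number. The replicate block gave 5 and 6 members in these 2 transient comparisons, against 15.4% and 17.8% of all genes, HSPA5 among them (adjusted p = 0.041 and 0.044), with the inducible counts within 1.5 times. Both transient counts hold HSPB8, which passed the filter on low counts only through treated libraries. Leaving out 1 library gave 24 to 26 (GFP 6 h), 22 to 25 (GFP 48 h), 25 to 28 (GFP 48 against 6 h), 26 to 28 (ZMYND8 6 h), 22 to 25 (ZMYND8 48 h), 29 to 29, 29 to 30 and 25 to 29 (between lines), and 12 to 15 and 21 to 26 (interactions). HSPD1 at 48 h in GFP cells (-0.007) was 0.032 with RLE scaling and with DESeq2 (0.032), 0.238 with total counts, 0.068 with at least 10 counts in every library, 0.015 with the compared groups alone and -0.039 to 0.001 without 1 library. HSP90AA1 at 48 against 6 h turned to 0.141 with total counts, and HSF1 at 48 h in ZMYND8 cells to 0.18 with total counts and 0.063 with at least 10 counts. The HSF1 interaction at 6 h (0.015) was -0.009 with RLE scaling and DESeq2, -0.066 with total counts, -0.019 with no filter, -0.01 with the compared groups alone and -0.055 to 0.08 without 1 library. In the transient doxorubicin comparison HSP90AA1 ran from -0.019 to 0.128 without 1 library and HSF1 from -0.327 to 0.182, with 0.075 under total counts. In labelled ZMYND8 plus doxorubicin against control HSP90AA1 was 0.135 with total counts, 0.004 with at least 10 counts and -0.1 to 0.07 without 1 library, and HSF1 -0.015 to 0.563. Against doxorubicin alone the ranges without 1 library were -0.164 to 0.171 for HSPA5, -0.17 to 0.008 for HSP90AA1 and -0.204 to 0.106 for HSPD1. The cause of these changes was not tested. HSPA6 and CRYAB are limited by few counts. Between libraries of 1 condition, chi-square over its degrees of freedom was 10.7 to 22.7 in the transient table and 2.19 to 5.21 in the inducible one, so both spreads exceed counting error.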
